A study of Mus musculus with 2 samples.

Results

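The genes described here are 10 receptors through which macrophages read metabolites and extracellular purines. They are *Gpr84*, *Hcar2*, *Ffar2*, *Ffar4*, *Gpr35*, *P2ry2*, *P2ry6*, *P2rx4*, *P2rx7* and *Adora2b*, out of 20655 genes that the array read under a gene symbol. They were chosen by name with earlier values of the same 2 arrays in view, so that their differences are a description and carry no test. The arrays compared RAW264.7 cells, a macrophage-like line from an Abelson leukemia virus tumor of a BALB/c mouse, after 24 h with vehicle control or with 10 μM IR-61, a near-infrared dye that enters mitochondria. Each condition had 1 culture and 1 single-colour Agilent array, so differences between conditions have no replicate check and fewer cells of a kind cannot be told apart from less RNA per cell. The labels name no inflammatory stimulus and no added receptor ligand in either condition, and the model is a tumor line rather than primary macrophages. The question was how the transcripts of these receptors differed between treated and control cells.

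Metabolite receptors of macrophages couple to G proteins and sense fatty acids, ketone bodies and tryptophan products. Purine receptors sense nucleotides that leave stressed or dying cells: P2X receptors are channels opened by ATP, P2Y receptors signal through G proteins, and adenosine receptors respond to the nucleoside that ectoenzymes make from ATP. Several of these receptors are known to be set by the activation state of the macrophage, and P2RX7 is the ATP channel that triggers the NLRP3 inflammasome.

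All 10 receptors had a named probe, and their 16 probes carried the scanner software's flag for a signal well above background on both arrays, which some of them passed by little. In 6 genes 1 probe was present and in 4 genes 2 or 3 probes. Each probe was spotted once, except that of *P2ry6*, which was printed 10 times. Signals are the intensities of the scanner files. Scaled values are log2 signals minus the 75th percentile of the array, which was 10.30 with vehicle and 10.79 with IR-61, and a difference is the scaled value with IR-61 minus that with vehicle. The only error that could be measured was the SD between replicate spots within an array, from which the SD expected for a difference is given beside each value. It covers noise within the array and not the variation between cultures. Probes differ in how well they bind, so each difference of a probe compares that 1 probe between arrays. Where the brightness of a gene's probes is compared, no transcript level is read from it.

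Macrophage markers, which cannot establish the identity of a cell line, were read in both cultures. Of 12 such markers 11 had a named probe. All 11 were well above background, with signals from 1002 to 120586 with vehicle and from 789.9 to 149992 with IR-61. Of 10 lymphoid markers 8 were above background, up to a signal of 1354 with vehicle for *Cd4*. Of 12 markers of stromal and other cells 8 were above background, and *Col1a1*, *Col1a2* and *Dcn* had signals of 27148, 15029 and 16543 with vehicle. Summed over each list, the signal with vehicle and with IR-61 was 368709 and 569304 for the macrophage markers, 2772 and 3663 for the lymphoid markers and 59560 and 104304 for the stromal and other markers. These sums are not scaled, add probes that bind unequally and come from arrays of which that with IR-61 was 1.40-fold brighter at the 75th percentile. After scaling, the sum with IR-61 was 1.101, 0.942 and 1.25 times that with vehicle for the 3 lists, so that the direction of the lymphoid sum turned. Past 2-fold at their brightest probes were *Adgre1*, which encodes a surface protein of mature macrophages, and the B cell gene *Ms4a1*. *Adgre1* had a log2 difference of 1.03, with 0.85 at its second probe, and *Ms4a1* had −1.46. At the brightest probes, the lowest macrophage marker was *Cd14* at −0.98 and the highest lymphoid marker *Pax5* at 0.36. The stromal and other markers ran from −0.41 for *Krt8* to 0.64 for *Mpo*. *Pax5*, *Krt8* and *Mpo* were dim, with vehicle signals of 36.9, 26.0 and 33.2 and expected SDs of 0.381, 0.463 and 0.381. The bright *Col1a1*, *Col1a2* and *Dcn* differed by 0.62, 0.10 and −0.09, each with an expected SD of 0.0946. *Cd3g*, *Ncr1*, *Epcam*, *Adipoq* and *Kit* had no signal above background. The part of these markers in the receptor values was not tested.

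Of the 10 receptors, 3 reached a 2-fold lower signal with IR-61 and none a 2-fold higher one, each gene taking its brightest probe by the mean log2 signal of both arrays. Over all 16885 genes measured on both arrays, 1.39% were lower by 2-fold or more and 1.99% higher. Because the receptors were chosen with this contrast known, nothing is read from their count. The 3 genes were *Gpr84*, *Ffar4* and *Adora2b*. The median log2 difference of the 10 receptors was −0.20, against 0.10 over all measured genes. Counted over probes, 5 of 16 were lower by 2-fold or more, against 1.49% of 30229 probes over the arrays (2.02% were higher), and the additional 2 were the dimmer probe of *Hcar2* and the middle probe of *Gpr35*. Without scaling between the arrays every difference was 0.49 higher on the log2 scale, and the median of all genes became 0.59. At their brightest probes, *Gpr84*, *Ffar4* and *Adora2b* were then the receptors that still had a lower value with IR-61. Among the other probes, the dimmer of *Hcar2* and the middle of *Gpr35* were also lower, at −1.48 and −0.92. The second probe of *Adora2b* was at 0.26. In that setting 0.426% of all genes were lower and 12.8% higher by 2-fold or more.

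**Figure D1:**
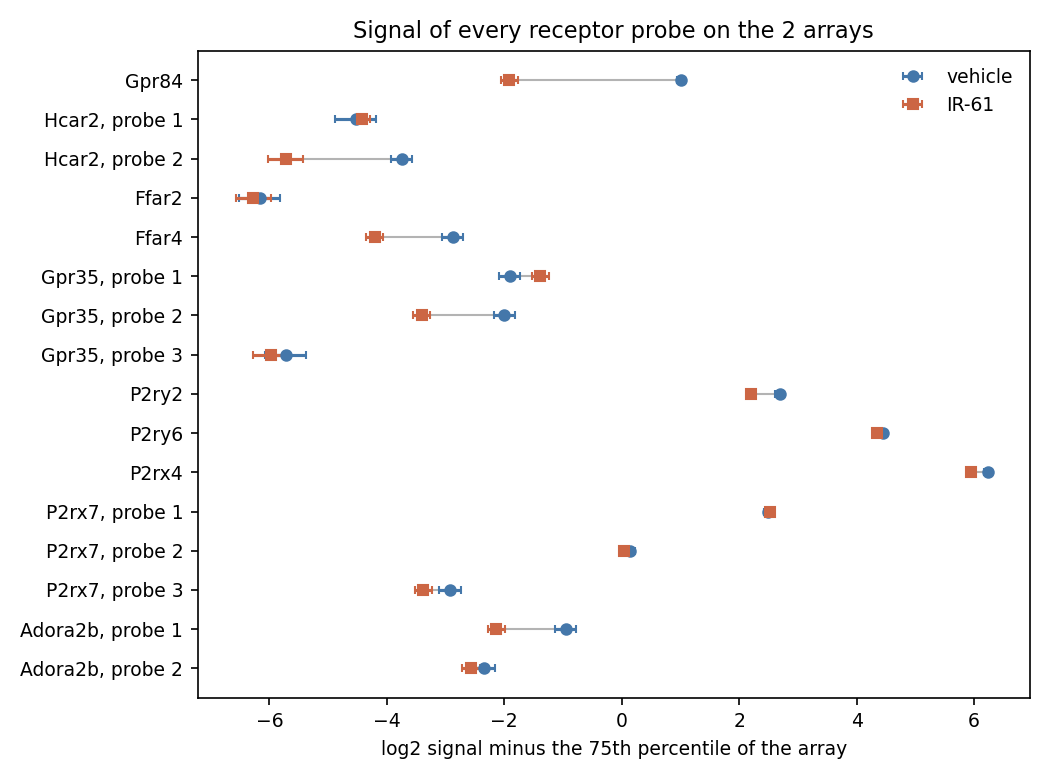
Scaled log2 signal (horizontal axis, log2 signal minus the 75th percentile of the array) of the 16 receptor probes with vehicle (circles) and IR-61 (squares), with the SD between spots expected at that signal as bars; a gene's probes are numbered from the brightest. *Gpr84* moved furthest, from 1.01 to −1.91, and the probes of *Hcar2*, *Gpr35* and *Adora2b* moved by unequal amounts within a gene.

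The sequences around the start sites of the 3 receptors past the 2-fold limit, and of *Gpr35*, whose probes read apart and for which 2 start sites are listed, are shown so that a reader can look for shared elements. They are RefSeq windows of the assembly GRCm38.p6, from 250 bases before to 50 bases after the start, 5′ to 3′ on the strand of the gene, and capitals mark the motifs named below.
Gpr84 (chr15:103310389-103310688, minus strand): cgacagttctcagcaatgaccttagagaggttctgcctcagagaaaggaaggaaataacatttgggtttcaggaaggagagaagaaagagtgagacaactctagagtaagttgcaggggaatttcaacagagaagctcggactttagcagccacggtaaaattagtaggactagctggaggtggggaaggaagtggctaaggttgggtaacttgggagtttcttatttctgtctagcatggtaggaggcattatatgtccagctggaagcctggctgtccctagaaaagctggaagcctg
Ffar4 (chr19:38096829-38097128, plus strand): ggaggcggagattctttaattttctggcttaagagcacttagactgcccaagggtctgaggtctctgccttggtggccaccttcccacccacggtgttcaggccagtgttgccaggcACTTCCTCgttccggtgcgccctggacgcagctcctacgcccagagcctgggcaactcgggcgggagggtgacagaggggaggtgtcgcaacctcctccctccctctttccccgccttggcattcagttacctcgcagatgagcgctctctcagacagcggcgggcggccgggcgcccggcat
Adora2b (chr11:62248734-62249033, plus strand): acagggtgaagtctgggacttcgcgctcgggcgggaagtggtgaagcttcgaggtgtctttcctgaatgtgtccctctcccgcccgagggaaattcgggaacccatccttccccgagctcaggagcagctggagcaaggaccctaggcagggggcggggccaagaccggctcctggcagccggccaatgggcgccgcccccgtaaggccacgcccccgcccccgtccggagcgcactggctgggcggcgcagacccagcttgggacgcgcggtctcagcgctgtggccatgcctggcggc
Gpr35, upstream start (chr1:92972869-92973168, plus strand): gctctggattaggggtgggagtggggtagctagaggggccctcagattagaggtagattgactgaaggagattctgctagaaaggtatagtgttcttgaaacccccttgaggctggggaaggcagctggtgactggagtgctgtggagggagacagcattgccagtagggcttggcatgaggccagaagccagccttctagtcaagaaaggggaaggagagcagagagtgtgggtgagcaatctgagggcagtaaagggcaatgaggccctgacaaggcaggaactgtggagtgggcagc
Gpr35, downstream start (chr1:92978653-92978952, plus strand): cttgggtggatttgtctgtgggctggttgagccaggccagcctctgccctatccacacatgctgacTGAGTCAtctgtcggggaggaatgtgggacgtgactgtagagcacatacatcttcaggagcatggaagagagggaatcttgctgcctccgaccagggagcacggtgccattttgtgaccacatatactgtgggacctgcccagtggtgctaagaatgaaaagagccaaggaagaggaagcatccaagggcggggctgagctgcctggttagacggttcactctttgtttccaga

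RefSeq windows were found for 8 of the 10 receptors, 14 windows in all. Searched on both strands were the NF-kB motif, the AP-1 motif TGANTCA, the cyclic AMP response element TGACGTCA and the PU.1 motif GAGGAAGT. No match of one motif overlapped a match of another. Of all 32851 windows, 4.51% held the NF-kB motif, 7.81% the AP-1 motif, 1.79% the cyclic AMP element and 3.20% the PU.1 motif. In the receptor windows an AP-1 match lay in the downstream window of *Gpr35*, beginning 184 bases before the start, and in 1 window each of *P2rx7* and *Ffar2*. A PU.1 match lay in the *Ffar4* window, beginning 133 bases before the start on the opposite strand, and in 1 window of *P2rx7*. The letters of the NF-kB motif and of the cyclic AMP element were in none of the 14 windows, and the windows of *Gpr84* and *Adora2b* held none of the 4 motifs. These windows are short, and a match or its absence says nothing about binding. They differed in composition, with 3 CpG dinucleotides in the *Gpr84* window, 19 in that of *Ffar4* and 27 in that of *Adora2b*, against a median of 7 over all windows.

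Among the receptors for fatty acids, *Gpr84* was the gene with the largest difference of the 10. It encodes a receptor for medium-chain fatty acids that is known to be induced in macrophages by inflammatory stimuli. Its single probe had a signal of 2545 with vehicle and of 470.2 with IR-61. The scaled log2 value went from 1.01 to −1.91, a log2 difference of −2.92 with an expected SD between spots of 0.162, equal to a 7.59-fold lower signal. The gene took rank 9 from the largest fall among the 16885 genes. On both arrays the probe was far from background, at 199 and 31.3 times the lowest signal of a probe well above background. Under the other settings its difference lay between −3.01 and −2.44.

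*Ffar4* encodes GPR120, a receptor for long-chain fatty acids. Its signal was 172 with vehicle and 96.2 with IR-61, a log2 difference of −1.33 with an expected SD of 0.231, equal to a 2.51-fold lower signal. The difference was larger than the spread between spots, and without scaling it was −0.84, inside the 2-fold limit. *Ffar2*, a receptor for acetate and other short-chain fatty acids, was barely above background, with signals of 17.6 and 22.9, or 1.38 and 1.52 times the lowest signal of a probe well above background. Its log2 difference of −0.11 was smaller than the expected SD of 0.463, and without scaling it was 0.38. At this signal a difference of that size could not be told apart from the spread between spots.

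*Hcar2* encodes the receptor for niacin and the ketone body β-hydroxybutyrate. Its 2 probes, which match the same RefSeq transcript, read apart. The probe that was brighter by the mean of both arrays had signals of 54.8 with vehicle and 82.2 with IR-61, a log2 difference of 0.10 with an expected SD of 0.381. With quantile normalization and loess this difference was −0.03, and all of these values lay within the spread between spots. The other probe had signals of 93.9 and 33.6, a log2 difference of −1.97 with an expected SD of 0.350, equal to a 3.92-fold lower signal. With normexp background correction it was at −1.20 and without scaling at −1.48. The differences of the 2 probes were 2.07 apart on the log2 scale, against an expected SD of 0.517. With vehicle the second probe was the brighter of the 2, so that taking the brightest probe on the vehicle array gives *Hcar2* a log2 difference of −1.97 in place of 0.10.

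*Gpr35*, a receptor for which kynurenic acid has been proposed as a ligand, showed the same kind of split over 3 probes of 1 RefSeq transcript. Its brightest probe had signals of 336 and 678, a log2 difference of 0.52 with an expected SD of 0.231. The middle probe was nearly as bright with vehicle, at 316, but had 167 with IR-61, a log2 difference of −1.41 with an expected SD of 0.231, equal to a 2.66-fold lower signal. Without scaling this probe was at −0.92, inside the 2-fold limit, and with normexp background correction at −1.15. The dimmest probe had signals of 23.9 and 28.1, close to background, and a log2 difference of −0.26 with an expected SD of 0.463. The brightest and the middle probe were 1.93 apart on the log2 scale, against an expected SD of 0.327 for 2 given probes. Their differences were the extremes of the 3, and they lay on opposite sides of 0 under every scaling tried. Whether the probes read different parts or isoforms of *Gpr35* was not tested, because probe sequences were not used here.

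**Figure D2:**
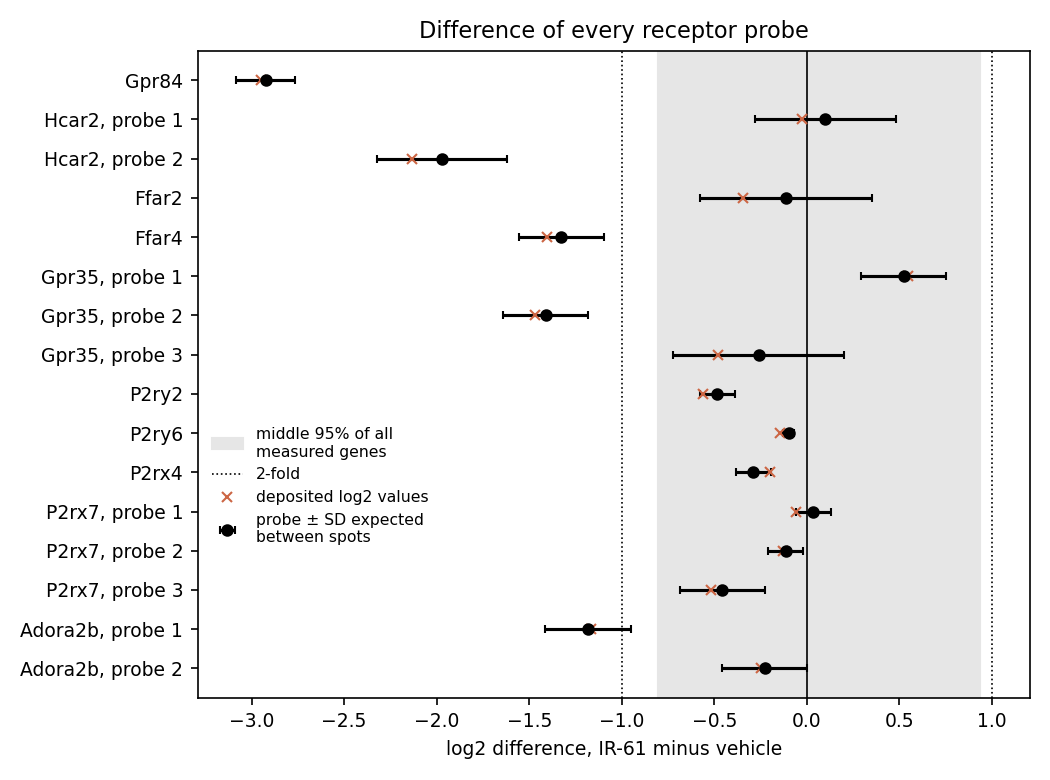
Log2 difference, IR-61 minus vehicle (horizontal axis), of the 16 receptor probes, with the expected SD between spots as bars, the difference in the deposited log2 values as crosses and the middle 95% of all measured genes shaded, from −0.81 to 0.93. The probes of *Gpr84* and *Ffar4*, the second probes of *Hcar2* and *Gpr35* and the first probe of *Adora2b* lie left of the 2-fold line, and no probe lies right of the other 2-fold line.

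At their brightest probes the receptors for extracellular nucleotides were bright on both arrays and differed by less than 2-fold. *P2ry2*, a receptor for ATP and UTP, had signals of 8139 with vehicle and 8165 with IR-61. Relative to the brighter IR-61 array this was a log2 difference of −0.48 with an expected SD of 0.0946, and without scaling it was 0.005. *P2rx4*, an ATP-gated channel found largely in lysosomes, had signals of 95118 and 109249 and a log2 difference of −0.29 with an expected SD of 0.0946, or 0.20 without scaling. Both differences were larger than the spread between spots and smaller than 2-fold.

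*P2ry6*, a receptor for UDP known for its role in phagocytosis, could be read at 10 spots on each array. With vehicle the signals ran from 25510 over a median of 27789 to 29103, and with IR-61 from 33179 over a median of 36372 to 38391. Before scaling every spot of the IR-61 array was thus brighter than every spot of the vehicle array. After scaling the order of the means turned, with 4.44 ± 0.06 for vehicle and 4.34 ± 0.07 for IR-61 (mean ± SD, 10 spots each), and the spots of the arrays overlapped. The scaled log2 difference was −0.10, equal to a 1.07-fold lower signal, and its expected SD for a mean of 10 spots was 0.0299. The differences of *P2ry6*, *P2ry2* and *P2rx4* were positive only without scaling, where the median of all measured genes was 0.59. Under every other setting they were negative.

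**Figure D3:**
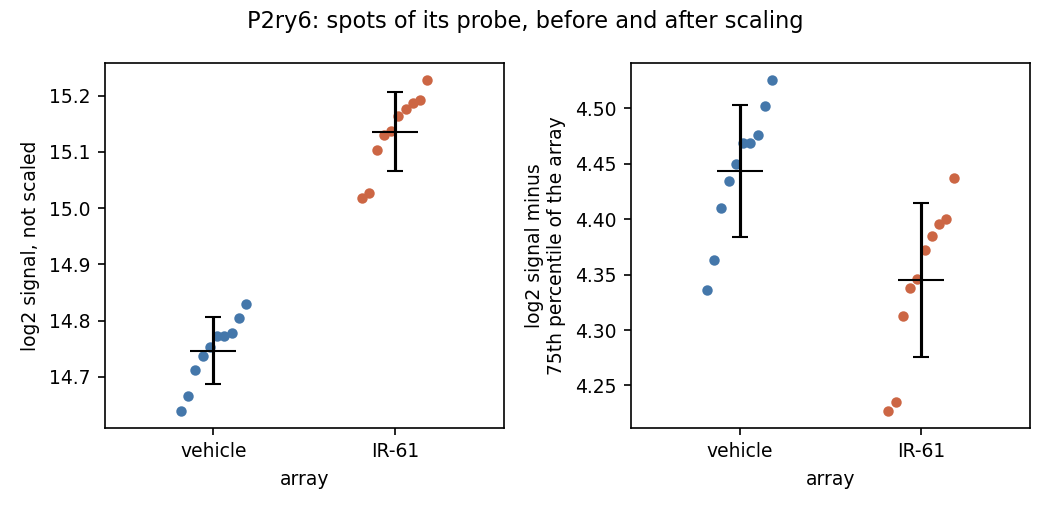
Log2 signal of the 10 spots of the *P2ry6* probe on each array, not scaled (left) and minus the 75th percentile of the array (right), with the mean and SD between spots in black; both vertical axes are log2 and do not start at 0. The unscaled groups do not overlap, with IR-61 higher, while the scaled groups overlap with means of 4.44 and 4.34.

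*P2rx7* was read by 3 probes that match different RefSeq transcripts of the gene. The brightest had signals of 7126 and 10239 and a log2 difference of 0.03 with an expected SD of 0.0946, a value within the spread between spots that was −0.06 with quantile normalization. The middle probe had signals of 1399 and 1815 and a log2 difference of −0.11 with an expected SD of 0.0946. The dimmest had signals of 166 and 170.1 and a log2 difference of −0.46 with an expected SD of 0.231. The highest and the lowest of the 3 differences were 0.49 apart, against an expected SD of 0.250, and none reached 2-fold. That SD is for 2 given probes, and the extremes of 3 lie further apart by their selection.

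*Adora2b* encodes the low-affinity adenosine receptor, which raises cyclic AMP. Its brighter probe had signals of 653 with vehicle and 404 with IR-61, a log2 difference of −1.18 with an expected SD of 0.231, equal to a 2.27-fold lower signal. Its second probe had signals of 249.7 and 299, and a log2 difference of −0.23 that was about as large as its expected SD of 0.231. The probes were 0.95 apart, against an expected SD of 0.327. With the mean of the probes the gene was at −0.71, with normexp background correction at −0.99 and without scaling at −0.69, all inside the 2-fold limit.

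Such splits between probes of a gene were seen elsewhere on the arrays. Of 4160 genes with 2 or more probes well above background on both arrays, 7.02% had probes whose log2 differences were 1 or more apart, with a median distance of 0.37. Among genes that had any probe lower by 2-fold or more, 104 of 122 also had a probe that was not. *Hcar2* and *Gpr35* were beyond a distance of 1, *Adora2b* just below it at 0.95 and *P2rx7* at 0.49. Over all probes, *Gpr84* and *Ffar4* were thus the receptors whose every probe was lower by 2-fold or more, with 1 probe each.

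**Figure D4:**
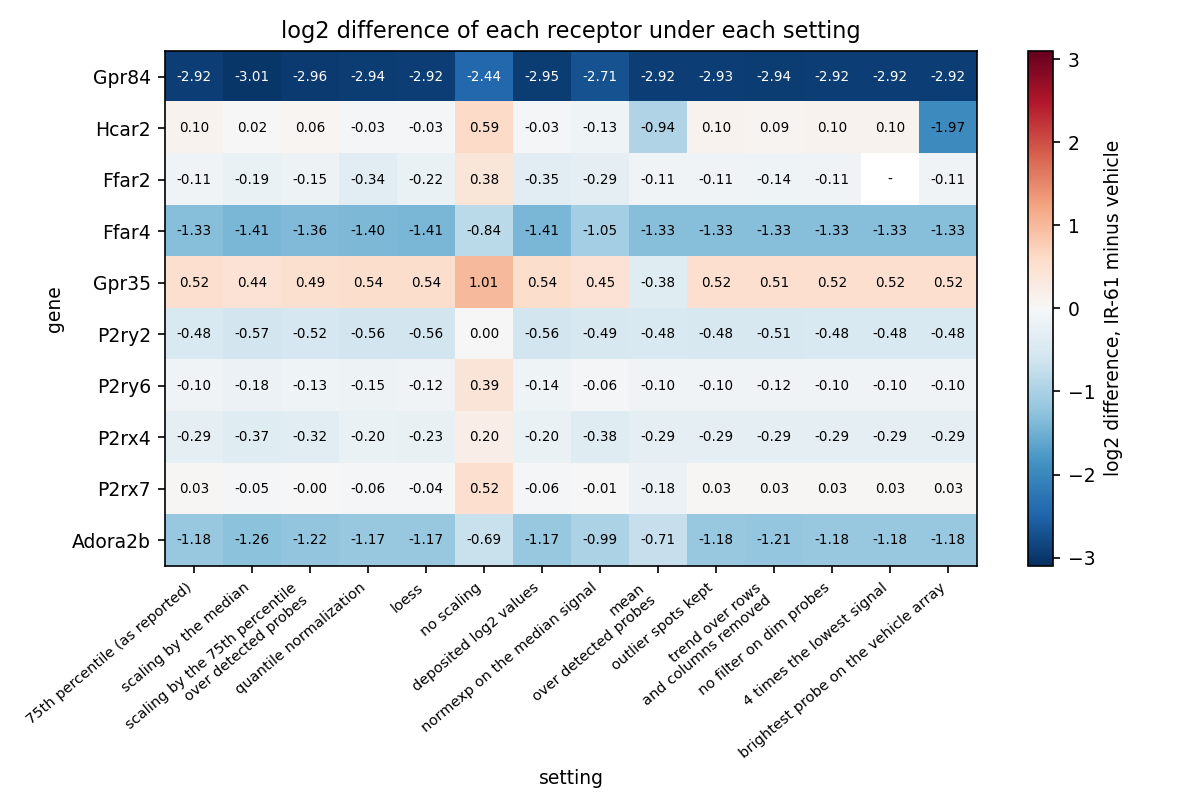
Log2 difference of each receptor (rows, one value a gene) under each processing setting (columns), coloured from blue for lower to red for higher with IR-61; a dash marks a probe left out by the setting. *Gpr84* lay between −3.01 and −2.44 throughout, while *Hcar2*, *Ffar2*, *Gpr35*, *P2ry2*, *P2ry6*, *P2rx4* and *P2rx7* had values of both signs. Those of *Ffar2*, *P2ry2*, *P2ry6* and *P2rx4* were positive only without scaling.

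On the chromosomes several receptors sit next to a relative. In the gene order of GRCm38.p6, *P2ry2* and *P2ry6* are neighbouring protein-coding genes on chromosome 7, *P2rx4* and *P2rx7* on chromosome 5, *Ffar2* and *Ffar3* on chromosome 7 and *Hcar2* and *Hcar1* on chromosome 5. The neighbours *P2ry2* and *P2ry6* had log2 differences of −0.48 and −0.10, and *P2rx4* and *P2rx7* of −0.29 and 0.03. *Ffar3*, a further receptor for short-chain fatty acids, had signals of 633 and 920.2 and a log2 difference of 0.05, and *Hcar1*, the lactate receptor, had no signal well above background.

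Among the other purine receptors, 11 of 14 were measured on both arrays, 1 was lower and 1 higher by 2-fold or more, and the median log2 difference was 0.15. Over all measured genes 1.39% were lower and 1.99% higher by 2-fold or more. This list and those that follow were chosen with earlier results known, so nothing is read from their counts. *Adora2a*, which like *Adora2b* raises cyclic AMP, had signals of 1129 and 528 and a log2 difference of −1.59 with an expected SD of 0.162. *P2ry12*, a receptor for ADP, had signals of 67.3 and 391 and a log2 difference of 2.05 with an expected SD of 0.231. *Adora3*, which lowers cyclic AMP, had a log2 difference of 0.15, within its expected SD of 0.231. The channel *P2rx5* at −0.96 and the receptor *P2ry10* at −0.95 were near the 2-fold limit and passed it with scaling by the median. *P2rx5* had signals of 155 and 112 and an expected SD of 0.231. *P2ry10* was close to background, with signals of 28.1 and 20.5 and an expected SD of 0.463.

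Of 16 other metabolite receptors 10 were measured, 1 was lower by 2-fold or more and none higher, with a median of −0.22. The lower gene was *Gpr132*, a G protein-coupled receptor for lipids, with signals of 7674 and 4100.0 and a log2 difference of −1.39 with an expected SD of 0.0946, and without scaling it was inside the 2-fold limit. *Gpr65* differed by −0.16, and *Gpr4* had the highest value among the measured genes of the list at 0.48, close to its expected SD of 0.463. *Ffar1* was well above background with IR-61 alone, with signals of 13.6 and 30.3. Taken against its own vehicle signal it was 1.59-fold higher, a log2 difference of 0.67 with an expected SD of 0.463. That value is therefore no firm lower limit. *Sucnr1* and *Oxgr1*, the receptors for succinate and oxoglutarate, did not rise above background on either array.

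The enzymes and transporters that set extracellular ATP and adenosine held 18 measured genes of 19, with 1 lower and 1 higher by 2-fold or more and a median of 0.16. The nucleotide hydrolase *Enpp3* had signals of 60.5 and 236 and a log2 difference of 1.47 with an expected SD of 0.381. The lysosomal nucleoside transporter *Slc29a3* had a log2 difference of −1.09 at its brighter probe and of −0.23 at the other. With normexp background correction 0 genes of this list passed the limit, so that both calls ended, and without scaling 1 passed. *Entpd1* and *Nt5e*, which encode the enzymes CD39 and CD73 of adenosine formation, differed by 0.32 and −0.26. *Entpd3* was well above background with IR-61 alone and was at least 2.93-fold higher.

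None of the 24 G protein subunits, arrestins, receptor kinases and RGS proteins passed the 2-fold limit in either direction at its brightest probe, and their median was −0.05. *Gna13* had a log2 difference of −0.38 at its brightest probe and of −1.08 and −0.81 at its dimmer probes, and without scaling 2 genes of the list passed. *Rgs18* was the highest at 0.998, just inside the limit, and *Gna14* the lowest at −0.75. *Gna14* was dim, with signals of 40.2 and 33.6 and an expected SD of 0.463. *Arrb2*, which encodes the arrestin known to carry GPR120 signals, differed by −0.75, and *Arrb1* by 0.54. *Arrb2* had signals of 3531 and 2955 and an expected SD of 0.0946. Of 12 partners of P2RX7, 1 passed the limit, *Il1b* at −3.78, and the median was −0.06. The shares of all measured genes past the limit were 1.39% lower and 1.99% higher. The inflammasome genes *Nlrp3*, *Pycard* and *Casp1* differed by −0.19, 0.14 and 0.25, and *Il18* had the highest value of the list at 0.49.

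**Figure D5:**
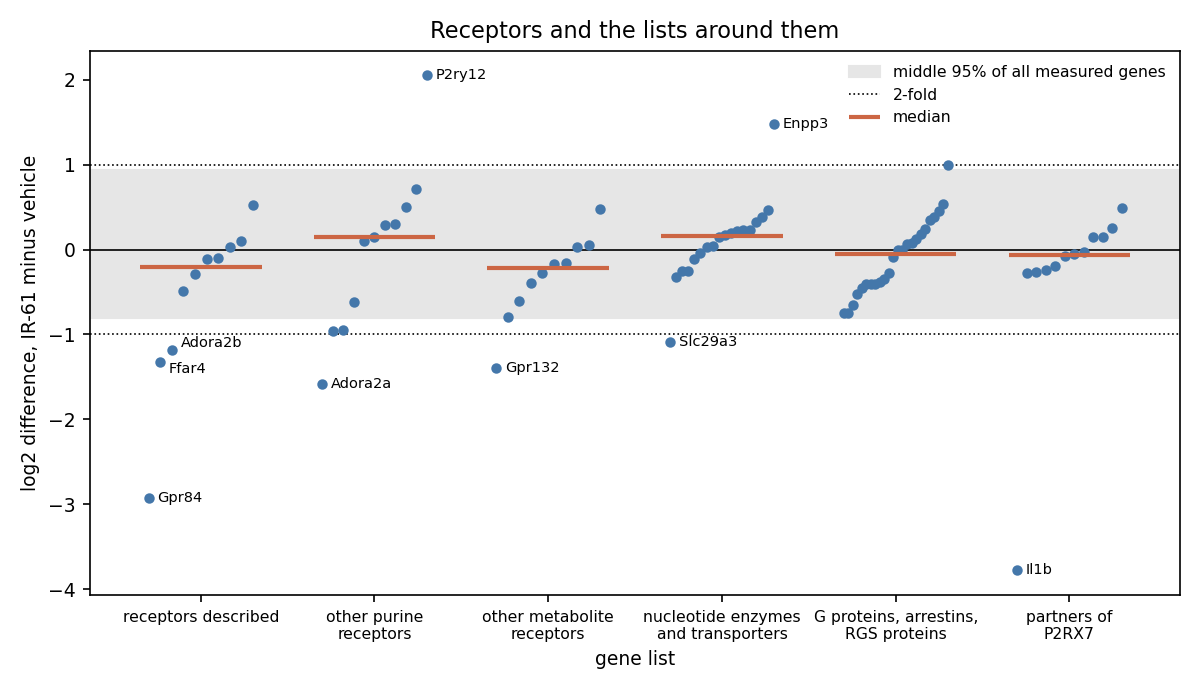
Log2 difference, IR-61 minus vehicle (vertical axis), of the measured genes in the receptor list and in 5 related lists, one point a gene at its brightest probe, with list medians as bars, the middle 95% of all measured genes shaded and genes past 2-fold named. Of the plotted genes past the 2-fold limit, *P2ry12* and *Enpp3* were higher with IR-61 and the others lower. *Entpd3*, for which only a bound is given, is not plotted. Over all measured genes 1.39% were lower and 1.99% higher by 2-fold or more. The lists were chosen with earlier results known, so nothing is read from the direction.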

How the data were processed

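The authors hybridized RNA of 1 RAW264.7 culture per condition to single-colour Agilent arrays, on 1 slide read in 1 scan. Spot intensities, corrected for background and detrended within the array by Feature Extraction (11.0.1.1 in the file headers, 11.0.0.1 in the submitters' processing notes), were deposited with 0/1 flags, other columns being unused. The deposited log2 values were made by a method not given in the sources used here.

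Outlier spots (124 with vehicle, 139 with IR-61) and control spots were dropped, and none was saturated. A probe's log2 intensities were averaged and the array's 75th percentile subtracted. Of 39419 probes 27224 were named through unversioned RefSeq accessions of GRCm38.p6. The array design uses mm9, so no probe coordinates are given, and the coordinates of start-site windows are those of RefSeq on GRCm38.p6. Each gene took its brightest probe. A probe above background on 1 array gave a bound against the higher of its own signal on the other array and the lowest signal above background there, 12.8 for vehicle and 15.0 for IR-61. Spot SDs came from probes with 5 or more spots.

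No test was run, and the number of arrays limits the precision. The receptors and lists were chosen with earlier results of these data known. All receptors were named, and in each other list the genes past 2-fold and the largest rise and fall, with some further genes chosen after their values were seen. One gene was left out of the lists and is not reported here. The steps were tested on simulated data. Tools were R 4.3.3 with limma 3.58.1 (normexp on the median signal, offset 50), Python 3.11.15, numpy 2.4.6, statsmodels 0.14.6, pandas 2.3.3 and matplotlib 3.10.9. Alternatives concerned the scaling, the background, probe choice, outlier spots, position on the array, dim probes, the fold limit, and the unit counted.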

Additional observations from a re-analysis of the deposited data

How the results depend on the processing

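No paired analysis was possible because the conditions held 1 array each. Without scaling between the arrays, 1 receptor was lower and 1 higher past the 2-fold limit, where 3 and 0 are reported, against 0.426% and 12.8% of all measured genes, and the median of the receptors was 0.29 in place of −0.20. The same setting gave 0 other metabolite receptors past 2-fold in place of 1, 1 nucleotide or adenosine enzyme in place of 2 and 2 G proteins, arrestins or RGS proteins in place of 0. Each of these moves follows from the shift of all differences by 0.49. With a 3-fold limit 1 receptor was lower, and 0 other metabolite receptors and 0 enzymes passed. The share of all genes past 3-fold is not given here, so nothing is read from these counts. Counted over probes, 5 receptor probes were lower and 1 probe of the G protein list passed. With scaling by the median, quantile normalization, loess and the deposited values 4 other purine receptors passed 2-fold in place of 2. Under these settings 1.62% to 1.75% of all genes were lower and 1.47% to 1.58% higher by 2-fold or more. Normexp left 0 enzymes past 2-fold, against 0.883% of all genes lower and 0.735% higher. The mean over detected probes left 1, against 1.37% and 1.74%. Without a filter on dim probes 4 other metabolite receptors passed, against 2.13% of all genes lower and 4.46% higher. With the deposited values 2 passed, against 1.66% and 1.58%. Single receptors moved by more than their expected SD between spots in 10 cases without scaling, in 4 each with normexp and with the mean over detected probes, in 2 with quantile normalization and in 1 each with scaling by the median, with the percentile over detected probes, with the deposited values and with the brightest probe on the vehicle array, and in 0 under the remaining settings. Normexp brought *Adora2b* to −0.99 and the mean over detected probes brought it to −0.71, with no cause tested. Taking the brightest probe on the vehicle array, a choice made after seeing the data, moved *Hcar2* to −1.97. *Gpr84* was lower by 2-fold or more under every setting run on single genes. Signal over background limits *Ffar2*, both probes of *Hcar2* and the dimmest probe of *Gpr35*.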
